A study of Homo sapiens with 9 samples.

Results

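The Polycomb repressor subunits comprised 9 genes, *EZH1*, *EZH2*, *SUZ12*, *EED*, *JARID2*, *CBX2*, *CBX7*, *CBX8* and *BMI1*. They were chosen by name and found by mapping each gene identifier to its symbol, which gave 9 of the 60708 genes in the count tables. The data were 9 RNA-sequencing libraries of untreated cells, all labelled MDA-MB-231, an established human breast cancer line of the triple-negative, basal type. Of these, 3 carried the label WT for unedited cells, and 3 each the labels CS16 and CS19. Both names stand for lines grown from single cells in which *SNAI1*, the gene of an EMT transcription factor, was targeted with CRISPR/Cas9, a pool of 3 guides, a repair template and puromycin selection. Each edited group was thus 1 clone, and a p-value over its libraries measures the spread between those libraries, which may be technical, and not the spread between clones. The 6 libraries of both clones together were also compared with the 3 WT libraries as the *SNAI1*-KO group. These were not 6 independent edited lines, so p-values of the pooled comparison do not measure the spread between clones either.

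Polycomb proteins keep developmental genes silent in cells that do not use them. Polycomb repressive complex 2 (PRC2) methylates lysine 27 of histone H3 through EZH2 or its relative EZH1, with SUZ12 and EED as obligatory partners. Canonical Polycomb repressive complex 1 (PRC1) reads that mark with a CBX protein, holds a PCGF protein such as BMI1 (PCGF4), and ubiquitinates histone H2A and compacts chromatin. SNAI1 is known to bring PRC2 to the *CDH1* promoter.

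The libraries held 19527195 to 28627777 read pairs counted on genes, and a count of 3 corresponded to 0.105 to 0.154 CPM, counts scaled to a common library size, before TMM normalization. The labels were checked first. *SNAI1* had 16 to 38 counts in the libraries labelled WT, 26 to 49 in those labelled CS16 and 57 to 94 in those labelled CS19. Its count over the whole gene was thus not lower in the edited groups (log2 fold change 0.89, edgeR adjusted p = 0.0838). Such a count does not show whether the transcript is intact or makes protein. For these clones the study reported lower *SNAI1* mRNA by RT-qPCR of each exon, no detectable protein, and deletions in the aligned reads. Libraries are called here by what they are labelled. *CDKN2A* and *CDKN2B*, the cell cycle inhibitors of a locus that MDA-MB-231 is known to have lost by deletion, were without counts in WT but had 1106 to 1575 and 235 to 326 counts in the others. Of 10 genes known for high expression in MDA-MB-231, all 10 were lower in the libraries labelled *SNAI1*-KO, and their summed level was 7279 to 8115 CPM over the WT libraries, 692 to 727 over CS16 and 611 to 684 over CS19. *CD44* had at most 2 counts and *AXL* at most 12 in any CS16 or CS19 library. The libraries labelled CS16 and CS19 thus went against their label as MDA-MB-231 cells on these genes. Every comparison with WT below rests on them, and none could be made without them. Markers of other cell types also moved with the groups. The summed level of 10 nephric genes was 62.5 to 87.5 CPM over WT, 393 to 410 over CS16 and 271 to 330 over CS19, with *PAX2* at 0 in WT and at 3 to 6 counts elsewhere. For 10 luminal genes the sums were 1413 to 1975, 72.5 to 74.9 and 101 to 123 CPM, and for 7 haematopoietic genes 21.9 to 25.0, 2.78 to 3.14 and 2.93 to 3.68 CPM. The 8 neuroendocrine genes gave sums of 77.5 to 101.5, 75.1 to 78.9 and 79.9 to 87.1 CPM, but 4 of them lay above WT and 2 below it in all 6 clone libraries, such as *NCAM1* with under 0.1 CPM in WT and 39.4 to 56.3 CPM elsewhere and *ENO2* with 62.0 to 87.7 CPM in WT and 1.46 to 9.84 CPM elsewhere. The 7 fibroblast genes gave 56.0 to 117.9, 64.1 to 68.6 and 10.7 to 12.6 CPM. The part of cell identity in the Polycomb values was not tested. In bulk RNA, fewer cells of a type and less RNA per cell cannot be told apart.

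WT-2 stood apart from the other WT libraries. Its Pearson correlation of log2(CPM + 1) across genes with WT-1 was 0.917 and that with WT-3 was 0.91. WT-1 and WT-3 correlated at 0.994, and libraries of the same clone at 0.995 or more. Its deviation moved with the GC content of the transcripts. When 14844 genes were split by GC content into 5 sets of like size, the median log2 difference of WT-2 from WT-1 and WT-3 went from -0.94 in the lowest set to 0.95 in the highest. With WT-2 included, the median log2 fold change of *SNAI1*-KO against WT went from 0.14 to -0.73 over the same sets. The members lay on both sides of this range. *BMI1*, *EED*, *SUZ12* and *EZH2*, with transcripts of 32.96% to 40.9% GC, had 0.303, 0.437, 0.609 and 0.732 times the mean level of WT-1 and WT-3 in WT-2. *JARID2* at 49.9% GC and *CBX2* at 59.5% GC had 1.73 and 2.09 times that level, whereas *EZH1* at 50.6% GC had 1.07 times. The part of GC content in the group differences was not tested, and the values of the members against WT are therefore given with and without WT-2.

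**Figure D1:**
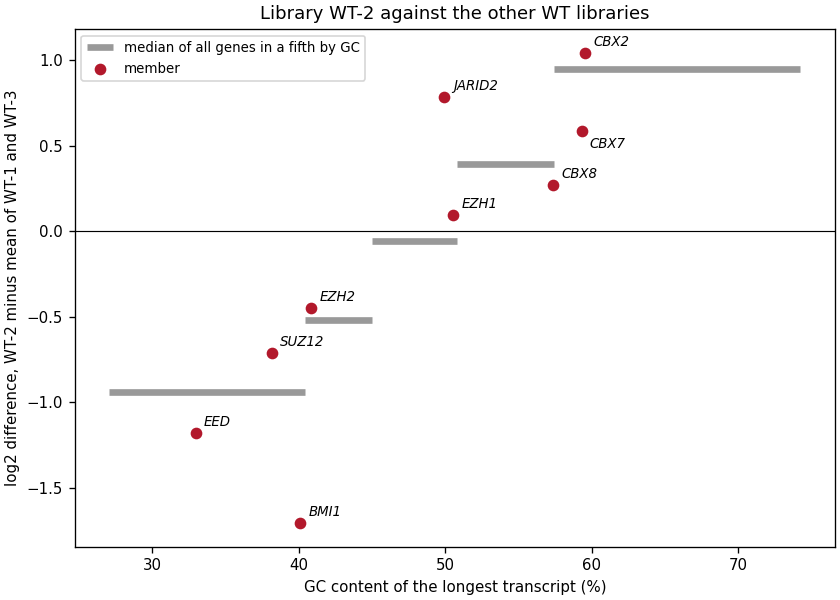
Log2 difference of library WT-2 from the mean of WT-1 and WT-3 (vertical axis) against the GC content of the longest transcript in percent (horizontal axis), for the 9 members (red points) and as the median of all genes in each of 5 sets by GC content (grey bars). *BMI1* at 40.1% GC lies lowest with -1.70 and *CBX2* at 59.5% GC highest with 1.04.

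The promoters of the members are shown because the data compare their RNA in cells edited for a factor that binds DNA, and because *EZH2* and *SUZ12* are known E2F targets of dividing cells. RefSeq windows of 300 bases, from 250 before to 50 after an annotated start on GRCh38.p14, matched 7 members with 10 windows. The set of windows held none for *CBX2* or *CBX8*, so the counts of words below do not cover them. Each window was searched on both strands for the E-box CAGGTG, which SNAI1 binds, and for the E2F words TTTCCCGC, TTTGGCGC, TTTCGCGC and TTTGCCGC, of which none contains the E-box. The E-box was in 0 of the 10 windows and in 20.6% of all 35116 windows of this length. An E2F word was in 3 of the 10, against 3.31% of all windows. These were the windows of *EZH1* (chr17:42744991-42745290, minus strand), *EZH2* (chr7:148884242-148884541, minus strand) and *SUZ12* (chr17:31936757-31937056, plus strand). They are printed 5′ to 3′ in the direction of the gene with the E2F word in capitals, together with the first *BMI1* window (chr10:22320849-22321148, plus strand), which held none of these words and belongs to the member that differed most between the clones.
EZH1: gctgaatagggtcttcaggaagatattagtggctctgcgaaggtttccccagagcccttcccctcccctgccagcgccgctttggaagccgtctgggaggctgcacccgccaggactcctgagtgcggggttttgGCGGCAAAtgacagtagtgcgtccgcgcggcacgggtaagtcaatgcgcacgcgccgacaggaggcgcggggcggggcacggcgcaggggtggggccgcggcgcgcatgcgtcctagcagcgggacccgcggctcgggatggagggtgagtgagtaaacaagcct
EZH2: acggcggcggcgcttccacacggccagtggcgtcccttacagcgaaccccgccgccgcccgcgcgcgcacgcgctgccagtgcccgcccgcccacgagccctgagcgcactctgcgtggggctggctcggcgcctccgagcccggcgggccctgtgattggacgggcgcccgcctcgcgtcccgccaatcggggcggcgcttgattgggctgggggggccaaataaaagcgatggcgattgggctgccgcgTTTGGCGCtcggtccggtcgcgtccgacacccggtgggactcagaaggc
SUZ12: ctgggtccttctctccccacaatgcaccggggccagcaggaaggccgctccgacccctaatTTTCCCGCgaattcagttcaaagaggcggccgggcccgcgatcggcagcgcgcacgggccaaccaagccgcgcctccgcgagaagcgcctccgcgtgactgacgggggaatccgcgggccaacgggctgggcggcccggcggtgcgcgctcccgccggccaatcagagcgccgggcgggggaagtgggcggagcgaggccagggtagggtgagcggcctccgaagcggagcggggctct
BMI1: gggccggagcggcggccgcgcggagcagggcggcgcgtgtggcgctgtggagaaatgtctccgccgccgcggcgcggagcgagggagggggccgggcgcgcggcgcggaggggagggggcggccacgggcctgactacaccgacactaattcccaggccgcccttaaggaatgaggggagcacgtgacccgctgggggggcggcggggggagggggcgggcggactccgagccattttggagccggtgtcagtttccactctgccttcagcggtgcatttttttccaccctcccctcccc
In *EZH2* the word began 1 base after the annotated start, and in *SUZ12* it began at position -189. *EZH1* held its word on the opposite strand at position -115. The 10 windows held 16 to 65 CpG dinucleotides against a median of 14 over all windows, the lowest number being that of *EED*. A match of letters describes the window and is not a binding site, and no match says nothing about the factor.

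All 9 members passed edgeR's filter on low counts in each comparison. When libraries labelled *SNAI1*-KO were set against WT, *CBX2* and *BMI1* were higher and *JARID2*, *EZH1* and *CBX7* were lower, while *EZH2*, *SUZ12*, *EED* and *CBX8* did not pass the test. The quasi-likelihood test of edgeR, adjusted after Benjamini and Hochberg over all genes, was thus passed at 0.05 by 5 of 9 members, 2 higher and 3 lower. Over all 19631 genes tested the same threshold was passed by 63.7%, 31.1% higher and 32.6% lower. For a set of 9 genes, the 55.6% of the members was near that background. The same 5 members were those in which all 6 libraries lay outside the range of the 3 WT libraries, which held for 58.2% of all genes. No member reached the study's cut-off of a log2 fold change of 2 together with an adjusted p below 0.05 in this comparison, against 26.9% of all genes. Without WT-2 the threshold of 0.05 was passed by 6 members and by 67.2% of 20293 genes, and *CBX2* alone also met the fold cut-off. The median log2 fold change of the members was -0.07, and -0.30 without WT-2, against -0.00 and 0.04 over all genes tested.

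**Figure D2:**
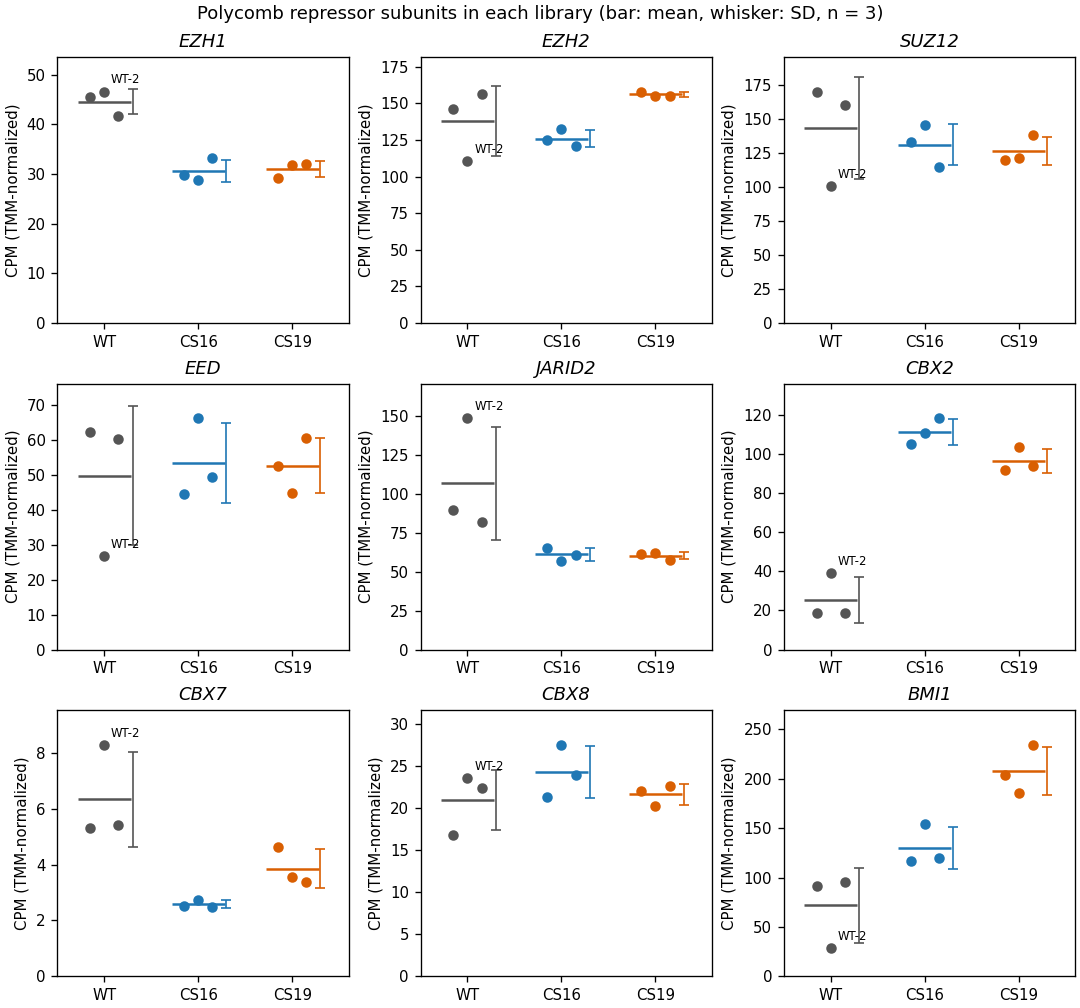
Level of each member in every library, in TMM-normalized CPM on a linear axis that starts at 0, for WT, CS16 and CS19 (points; bars show the mean and whiskers the SD, n = 3). *CBX2* and *BMI1* lie above all WT libraries and *EZH1*, *JARID2* and *CBX7* below them in all 6 clone libraries, and WT-2 is the highest or lowest WT library in every panel.

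Of the catalytic subunits of PRC2, *EZH1* passed the test between *SNAI1*-KO and WT and *EZH2* did not, and their ratio is tested below. *EZH2* (ENSG00000106462.12, chromosome 7, 148807257 to 148884321, minus strand) encodes the methyltransferase of proliferating cells. It had 146.1, 110.8 and 156.7 CPM in WT-1, WT-2 and WT-3, 125, 132 and 121 CPM in the CS16 libraries, and 158, 155 and 155 CPM in the CS19 libraries. Levels averaged 138 ± 24.1, 126 ± 5.87 and 156 ± 1.62 CPM (SD, n = 3 each), and the WT libraries overlapped both clones. The log2 fold change of *EZH2* was -0.07 for *SNAI1*-KO against WT (standard error 0.15, edgeR adjusted p = 0.697), -0.21 for CS16 (edgeR adjusted p = 0.346) and 0.12 for CS19 (edgeR adjusted p = 0.611). Without WT-2, its lowest WT library, CS16 was below WT by a log2 fold change of -0.36 (standard error 0.09, edgeR adjusted p = 0.00257), whereas CS19 stayed at -0.02 (edgeR adjusted p = 0.842). The 2 clones also differed directly, with *EZH2* lower in CS16 than in CS19 in 3 of 3 libraries by 0.32 on the log2 scale (standard error 0.07, edgeR adjusted p = 0.00253).

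*EZH1* (ENSG00000108799.13, chromosome 17, 42700275 to 42745049, minus strand) encodes the methyltransferase that predominates in resting cells. Its level was 45.6, 46.6 and 41.7 CPM in the WT libraries, 29.8, 28.8 and 33.2 CPM in CS16, and 29.2, 31.9 and 32.0 CPM in CS19. Every clone library was below every WT library, and the clones overlapped. *EZH1* was lower in the *SNAI1*-KO libraries by a log2 fold change of -0.64, or 1.56-fold (standard error 0.12, edgeR adjusted p = 0.000665, 6 of 6 libraries), and by -0.60 without WT-2 (edgeR adjusted p = 0.000141). In the fits of each clone it was -0.63 in CS16 (edgeR adjusted p = 0.0168) and -0.60 in CS19 (edgeR adjusted p = 0.0193). These calls were lost when any 1 library of the clone was left out, with edgeR adjusted p of 0.0609 to 0.0922 in CS16 and 0.0816 to 0.11 in CS19. The clones did not pass the test against each other, with a log2 difference of -0.03 (standard error 0.08, edgeR adjusted p = 0.863).

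Levels of these paralogs were compared per length as TPM, a level divided by gene length and scaled to the same total in each library. The length was that of all annotated exons together, 10774 bases for *EZH2* and 6988 for *EZH1*. Ratios, orders and shares of different genes, here and below, depend on these lengths. The log2 difference of a ratio between groups does not. The ratio of *EZH2* to *EZH1* was 2.08, 1.54 and 2.44 in the WT libraries, 2.72, 2.98 and 2.36 in CS16, and 3.51, 3.16 and 3.15 in CS19. All CS19 ratios were above all WT ratios, while CS16-3 lay below WT-3. The mean ratio was 2.02 ± 0.452 in WT, 2.69 ± 0.310 in CS16 and 3.27 ± 0.205 in CS19 (SD, n = 3 each). On the log2 scale the 6 *SNAI1*-KO libraries exceeded WT by 0.57 (exact permutation test, two-sided p = 0.0476, n = 6 and 3, smallest possible p 0.0119). The difference was 0.43 for CS16 (exact permutation p = 0.2) and 0.72 for CS19 (exact permutation p = 0.1, the smallest that 3 against 3 libraries allow). CS16 lay below CS19 by a log2 difference of -0.29 (exact permutation p = 0.1). Adjusted after Benjamini and Hochberg over these 4 comparisons, the exact permutation p was 0.133 for all but CS16 against WT, where it was 0.2. Without WT-2 the pooled difference was 0.39 with an exact permutation p of 0.143.

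*SUZ12* (ENSG00000178691.11, chromosome 17, 31937007 to 32001038, plus strand) encodes the scaffold on which PRC2 assembles. It had 170.2, 100.6 and 160.2 CPM in WT, 133.5, 145.3 and 115.05 CPM in CS16, and 120.2, 121.5 and 138 CPM in CS19. WT-2 was below all clone libraries, and the other WT libraries were above them. With all libraries the log2 fold change was -0.26 for *SNAI1*-KO (standard error 0.16, edgeR adjusted p = 0.182), -0.20 for CS16 and -0.25 for CS19 (edgeR adjusted p = 0.466 and 0.38). Without WT-2 *SUZ12* was lower in both clones, by -0.42 in CS16 (edgeR adjusted p = 0.00198) and -0.45 in CS19 (edgeR adjusted p = 0.000302) on the log2 scale, and by -0.45 for *SNAI1*-KO (edgeR adjusted p = 0.00203). A related locus, *SUZ12P1*, had 4440 counts over all libraries against 26565 for *SUZ12*, so pairs from the shared sequence could be lost or misplaced in either.

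*EED* (ENSG00000074266.22, chromosome 11, 86244753 to 86278813, plus strand) encodes the subunit that binds trimethylated lysine 27 and stimulates the enzyme. Its values were 62.2, 26.8 and 60.4 CPM in WT, 44.5, 66.2 and 49.5 CPM in CS16, and 52.5, 44.8 and 60.7 CPM in CS19. The groups overlapped, and WT-2 was the lowest of the 9 libraries. The log2 fold change for *SNAI1*-KO was -0.01 (standard error 0.24, edgeR adjusted p = 0.975), a value whose sign depended on the scaling, since upper-quartile normalization gave 0.05. Without WT-2 it was -0.30 for *SNAI1*-KO (edgeR adjusted p = 0.0941), -0.29 for CS16 (edgeR adjusted p = 0.0668) and -0.28 for CS19 (edgeR adjusted p = 0.0379).

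*JARID2* (ENSG00000008083.14, chromosome 6, 15246069 to 15522042, plus strand) encodes an accessory subunit that helps to bring PRC2 to chromatin. The WT libraries had 89.5, 148 and 82.1 CPM, the CS16 libraries 65.4, 57.0 and 60.8 CPM, and the CS19 libraries 61.2, 62.1 and 57.5 CPM. All clone libraries were below all WT libraries, and those of both clones spanned the same narrow range. *JARID2* was lower in the *SNAI1*-KO libraries by a log2 fold change of -0.93, or 1.91-fold (standard error 0.18, edgeR adjusted p = 0.000924, 6 of 6 libraries). WT-2, its highest library, widened this difference, which was -0.59 or 1.51-fold without it (standard error 0.09, edgeR adjusted p = 9.42e-05). The fits of single clones gave -0.90 in CS16 (edgeR adjusted p = 0.0254) and -0.90 in CS19 (edgeR adjusted p = 0.0247), and both calls were lost without any 1 library of the clone, at edgeR adjusted p of 0.0595 to 0.102 and 0.079 to 0.101. Without WT-2 they were -0.58 in each (edgeR adjusted p = 6.88e-05 and 3.23e-05).

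**Figure D3:**
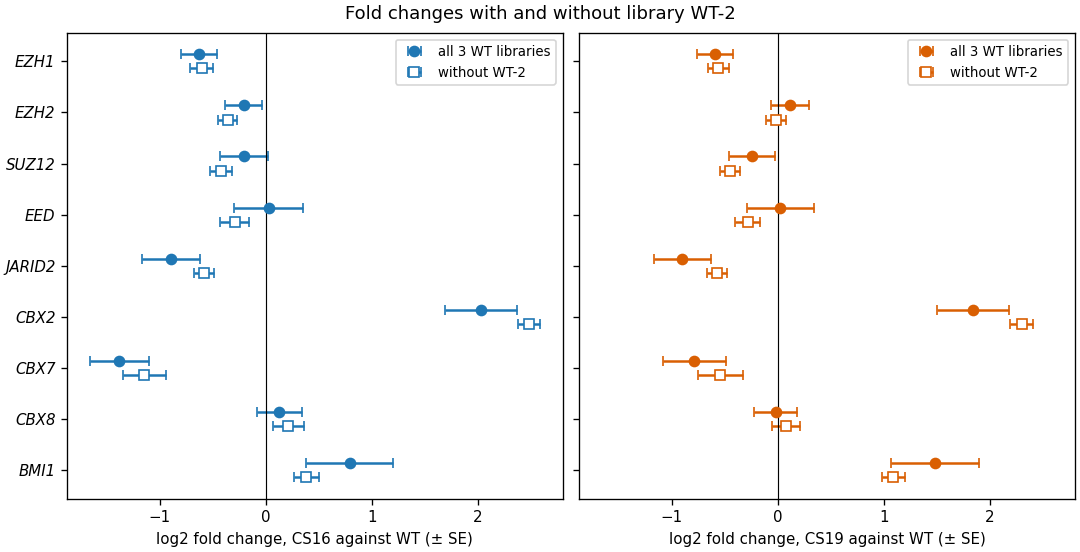
Log2 fold change of each member with its standard error for CS16 (left) and CS19 (right) against WT, with all 3 WT libraries (filled circles) and without WT-2 (open squares). *CBX2* has the largest rise in both panels, from 2.03 to 2.48 in CS16 and from 1.84 to 2.30 in CS19 without WT-2, whereas the *BMI1* values move down to 0.38 and 1.09.

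Among the subunits of PRC1, *CBX2* (ENSG00000173894.11, chromosome 17, 79778148 to 79787983, plus strand) had the largest difference of all members. Its product reads lysine 27 methylation and compacts nucleosomes. *CBX2* was at 18.8, 39.0 and 18.5 CPM in WT, at 105.1, 110.4 and 118.04 CPM in CS16, and at 91.8, 103 and 93.7 CPM in CS19. The counts behind these values were 376 to 739 in WT and 2034 to 2883 elsewhere, with no overlap between the groups. *CBX2* was higher in the *SNAI1*-KO libraries by a log2 fold change of 1.91, or 3.75-fold (standard error 0.26, edgeR adjusted p = 5.08e-05, 6 of 6 libraries). Without WT-2, its highest WT library, the value was 2.38, or 5.21-fold (standard error 0.12, edgeR adjusted p = 2.10e-08).

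Each clone carried the rise of *CBX2*. The log2 fold change was 2.03 in CS16 (edgeR adjusted p = 0.0017) and 1.84 in CS19 (edgeR adjusted p = 0.00261), and only the former passed the study's fold cut-off until WT-2 was left out, when both did with 2.48 and 2.30. In the direct comparison CS16 exceeded CS19 in 3 of 3 libraries by a log2 fold change of 0.20 (standard error 0.07, edgeR adjusted p = 0.0429). That call was lost without CS16-1, CS16-3, CS19-1 or CS19-3, with edgeR adjusted p of 0.0532, 0.192, 0.122 and 0.181.

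*CBX8* (ENSG00000141570.11, chromosome 17, 79792132 to 79801683, minus strand) encodes another reader of the mark and lies 4148 bases from *CBX2*. It had 16.8, 23.5 and 22.3 CPM in WT, 21.3, 27.5 and 24.0 CPM in CS16, and 22.0, 20.2 and 22.7 CPM in CS19. The 3 groups overlapped. Its log2 fold change for *SNAI1*-KO was 0.02 (standard error 0.17, edgeR adjusted p = 0.925), with 0.13 in CS16 (edgeR adjusted p = 0.632) and -0.02 in CS19 (edgeR adjusted p = 0.933). Without WT-2 these were 0.13, 0.21 and 0.08 (edgeR adjusted p = 0.463, 0.203 and 0.628).

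*CBX7* (ENSG00000100307.13, chromosome 22, 39120167 to 39152680, minus strand) encodes the reader known for holding the *CDKN2A* locus silent. It was the member with the lowest level, at 5.31, 8.29 and 5.41 CPM in WT, 2.51, 2.75 and 2.50 CPM in CS16, and 4.65, 3.55 and 3.38 CPM in CS19. The WT libraries had 110 to 157 counts, CS16 had 50 to 61 and CS19 had 79 to 103, and the 3 groups did not overlap on the CPM scale. *CBX7* was lower in *SNAI1*-KO by a log2 fold change of -1.09, or 2.12-fold (standard error 0.26, edgeR adjusted p = 0.00344, 6 of 6 libraries), and by -0.82 without WT-2 (edgeR adjusted p = 0.0129). CS16 fell below WT by -1.38 on the log2 scale (edgeR adjusted p = 0.00437). For CS19 the value was -0.79 with an edgeR adjusted p of 0.055, which passed the threshold without WT-2 at -0.54 (edgeR adjusted p = 0.0278). Exons of other genes overlapped 21.6% of its exon bases, most of them on the opposite strand, and the counting ignored strand, so pairs of the opposite gene and *CBX7* there cannot be told apart.

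Between the clones *CBX7* was lower in CS16 than in CS19 in 3 of 3 libraries, by a log2 fold change of -0.59 (standard error 0.20, edgeR adjusted p = 0.0432). The call was lost without CS16-1, CS16-3 or CS19-1, with edgeR adjusted p of 0.107, 0.12 and 0.18.

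*BMI1* (ENSG00000168283.14, chromosome 10, 22321099 to 22331484, plus strand) encodes the PCGF subunit that activates the ubiquitin ligase of canonical PRC1. It had 91.4, 28.3 and 95.7 CPM in WT, 116.4, 154.7 and 119.5 CPM in CS16, and 204, 186 and 234 CPM in CS19. The order WT, CS16, CS19 held with no overlap between groups. *BMI1* was higher in *SNAI1*-KO by a log2 fold change of 1.14, or 2.20-fold (standard error 0.36, edgeR adjusted p = 0.0163, 6 of 6 libraries). WT-2 contributed to this, since it had 537 counts and the other WT libraries 1910 and 1945, and without it the value was 0.76, or 1.69-fold (edgeR adjusted p = 0.0194).

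The 2 clones differed in *BMI1*. CS19 exceeded WT by a log2 fold change of 1.48 (standard error 0.41, edgeR adjusted p = 0.0186), a call lost without CS19-3 (edgeR adjusted p = 0.0525), and by 1.09 without WT-2 (edgeR adjusted p = 4.89e-08). For CS16 the value was 0.79 (standard error 0.41, edgeR adjusted p = 0.142), and without WT-2 it was 0.38 and passed the threshold (edgeR adjusted p = 0.00932). Compared directly, CS16 was lower than CS19 in 3 of 3 libraries by -0.69 on the log2 scale, or 1.61-fold (standard error 0.11, edgeR adjusted p = 0.000333). Of the exon bases of *BMI1*, 22.8% were shared with the readthrough gene *COMMD3-BMI1* on the same strand, and *COMMD3-BMI1* had 0 counts in all libraries. Pairs on shared bases could be lost from both genes, so these 0 counts do not show that readthrough was absent.

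In all, 4 of 9 members passed in CS16 against WT, where 55.6% of all 18611 genes tested did, and 4 of 9 in CS19 against WT, where 52.9% of 18935 did. Without WT-2 there were 7 of 9 (77.8%) in each, beside 72.7% of 19391 genes in CS16 and 71.2% of 19768 genes in CS19. Both fits used the same WT libraries. In CS16 against CS19, 4 of 9 members passed (*EZH2*, *CBX2*, *CBX7* and *BMI1*), where 27.4% of all 17538 genes tested did. When the WT libraries shared the fit and thus the estimate of spread, 0 members passed in edgeR, with 1 at an unadjusted p below 0.05, while DESeq2 called 3.

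Per length, the order of the members changed between groups. In WT the highest mean belonged to *SUZ12* at 73.4 ± 18.0 TPM, followed by *JARID2*, *BMI1*, *EZH2*, *EED*, *EZH1*, *CBX8*, *CBX2* and *CBX7*, the last at 2.92 ± 1.08 TPM (SD, n = 3). Neighbours in this order overlapped except *EZH2* with *EED* and *CBX2* with *CBX7*. In both clones *BMI1* came first, at 89.0 ± 5.93 TPM in CS16 and 139 ± 5.22 TPM in CS19, with all its libraries above those of *SUZ12*, which came next. *CBX2* moved from place 8 at 15.6 ± 8.75 TPM in WT to place 3 at 59.5 ± 6.84 TPM in CS16 and 50.5 ± 7.54 TPM in CS19, and it overlapped *SUZ12* in both. *EZH1* and *CBX7* held the last places in both clones.

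Among *CBX2*, *CBX6*, *CBX7* and *CBX8*, each gene's share of their summed TPM was taken. *CBX2* made up 17.3%, 18.6% and 14.7% in WT-1, WT-2 and WT-3, 33.9%, 33.15% and 35.1% in CS16, and 28.03%, 29.9% and 27.9% in CS19. The groups did not overlap, and WT-2 had the highest WT share. *CBX6*, another CBX gene, held the largest share in every group, with 59.4 ± 3.04%, 55.2 ± 0.822% and 61.7 ± 0.383% in WT, CS16 and CS19 (SD, n = 3 each). *CBX8* had 20.4 ± 4.55% in WT, 10.2 ± 1.02% in CS16 and 8.84 ± 0.708% in CS19, while the summed level of these 4 genes was 89.98 ± 41.3, 174 ± 17.0 and 176 ± 20.4 TPM. *CBX7* had 3.33 ± 0.357%, 0.602 ± 0.0328% and 0.874 ± 0.176%.

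Within the PCGF family, *BMI1* made up 27.1%, 12.7% and 26.7% of the summed TPM in WT-1, WT-2 and WT-3. Its share was 39.7%, 42.1% and 39.8% in CS16 and 50.3%, 48.6% and 51.2% in CS19. No group overlapped another. *PCGF5*, a subunit of variant PRC1, had 27.8 ± 8.75% in WT against 11.1 ± 0.622% and 13.3 ± 0.0829%. *PCGF2* (MEL18), the closest relative of *BMI1*, had 21.7% in WT-2 but about 1% in the clones, and its 8.28 ± 11.6% in WT rested on that library. The summed PCGF level was 233 ± 42.4, 219.5 ± 12.2 and 278.5 ± 9.05 TPM in WT, CS16 and CS19.

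**Figure D4:**
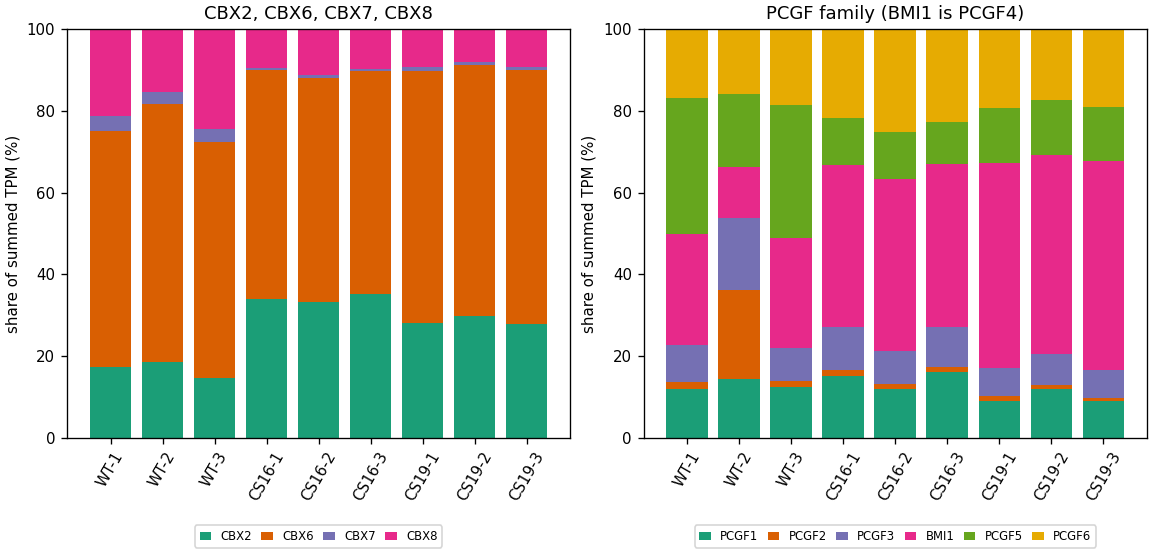
Share of each gene in the summed TPM of *CBX2*, *CBX6*, *CBX7* and *CBX8* (left) and of the PCGF family (right), in percent, as 1 stacked bar per library. The *CBX2* share is 14.7% to 18.6% in the WT libraries and 27.9% to 35.1% in the others, and the *BMI1* share rises from at most 27.1% in WT to between 48.6% and 51.2% in CS19.

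The other Polycomb genes were taken from lists of 10 further PRC2 genes, 24 further PRC1 genes and 10 genes that oppose Polycomb silencing. Of the 44 listed, 43 passed the filter, and *EZHIP*, an inhibitor of PRC2, did not, with at most 10 counts in any library. Between *SNAI1*-KO and WT 29 of the 43 passed the test, with 14 higher and 15 lower. Their median log2 fold change was 0.04. The share of 67.4% was close to the 63.7% over all genes. Without WT-2 there were also 29, of which 17 were higher and 12 lower.

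*RBBP4*, the histone chaperone of the core complex, had 117.1, 109.4 and 115.4 CPM in WT and 313 to 364 CPM in all clone libraries, a log2 fold change of 1.44 (standard error 0.12, edgeR adjusted p = 1.36e-06). Exons of other genes overlapped 22.8% of its exon bases. The 3 Polycomb-like proteins, which tether PRC2 to CpG-rich DNA, went opposite ways. *PHF1* had 65.6, 124.7 and 67.1 CPM in WT and 11.9 to 13.2 CPM in the others, and was lower by -2.90 on the log2 scale (edgeR adjusted p = 2.26e-07). *PHF19* was lower by -2.46 (edgeR adjusted p = 2.51e-07), from 194 to 258 CPM in WT to 34.3 to 51.7 CPM. *MTF2* was higher by 1.48 (edgeR adjusted p = 0.000238), from 26.6 to 65.7 CPM to 134 to 169.5 CPM. Without WT-2 the log2 fold changes of *PHF1*, *PHF19* and *MTF2* were -2.51, -2.31 and 1.18. Of the 9 PRC2 genes tested, 6 passed (66.7%, against 63.7% of all genes), 3 in each direction, and 8 passed without WT-2 (88.9%, against 67.2%).

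Of the 24 further PRC1 genes, 16 passed (66.7%, against 63.7% of all genes), 10 higher and 6 lower, and 18 passed without WT-2 (75.0%, against 67.2%). The polyhomeotic genes, whose products polymerize canonical PRC1, diverged. *PHC1* was higher with 2.80 to 5.86 CPM in WT and 16.3 to 18.9 CPM in the clones (log2 fold change 1.94, edgeR adjusted p = 2.35e-05), and *PHC2* was lower with 193 to 298 CPM and 72.3 to 88.2 CPM (log2 fold change -1.65, edgeR adjusted p = 2.32e-06). *SCML2*, a PRC1-associated protein, rose by 2.41 (edgeR adjusted p = 3.15e-06), *L3MBTL2* of the PCGF6 complex by 1.37 (edgeR adjusted p = 7.42e-05) and *BCOR* of the PCGF1 complex by 2.20 (edgeR adjusted p = 2.37e-05) on the log2 scale. Exons of genes on the opposite strand overlapped 18.0% of the exon bases of *PHC1* and 23.2% of those of *L3MBTL2*, so their values are uncertain. *AUTS2*, a partner of the PCGF3 and PCGF5 complexes, was without counts in WT and had 697 to 1323 in the others, at least 264-fold higher against a floor of 3 counts per library. It passed the filter only through the clone libraries, so its place among the higher genes is a description. *BCORL1* was a case in which 1 library set the result. It had 209, 1342 and 99 counts in WT and 145 to 293 elsewhere, and its log2 fold change of -1.65 (edgeR adjusted p = 0.0328) became 0.33 without WT-2 (edgeR adjusted p = 0.299).

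Among the 10 genes that oppose Polycomb, 7 passed (70.0%, against 63.7% of all genes), 1 higher and 6 lower, but 3 of 10 without WT-2 (against 67.2%), 1 higher and 2 lower. *ASXL1*, a cofactor of the H2A deubiquitinase BAP1, had 293, 470 and 261 CPM in WT and 83.6 to 102.8 CPM in the clones and was lower by -1.96 (edgeR adjusted p = 2.50e-06), or -1.63 without WT-2. *ASXL3*, of the same family, had 0, 2 and 0 counts in WT and 368 to 639 in the others. It passed the filter only through the clone libraries, so its place as the 1 higher gene in these counts is a description. The demethylase gene *KDM6B* had 84, 652 and 44 counts in WT and 61 to 81 in the others, and its log2 fold change went from -2.27 (edgeR adjusted p = 0.0087) to -0.09 (edgeR adjusted p = 0.766) without WT-2. *KMT2D* behaved likewise, with 1147, 8217 and 666 counts in WT and log2 fold changes of -1.92 and 0.12. These 3 genes, *BCORL1*, *KDM6B* and *KMT2D*, were chosen after their values were seen.

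**Figure D5:**
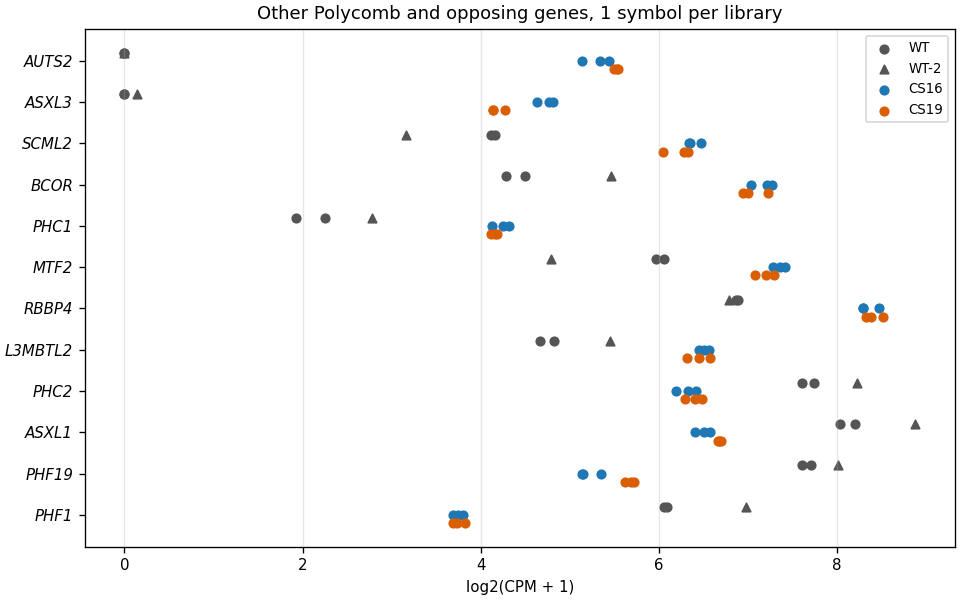
Level of 12 other Polycomb and opposing genes as log2(CPM + 1) on the horizontal axis, with 1 symbol per library for WT (grey, WT-2 as a triangle), CS16 (blue) and CS19 (orange). The WT libraries lie apart from all 6 clone libraries for each gene, 8 genes to the left of them and *PHC2*, *ASXL1*, *PHF19* and *PHF1* to the right.

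Genes known as Polycomb targets were listed apart, with 39 *HOX* genes, which set the body axis, and 34 others. Of the 73, 60 passed the filter, and a gene at 0 in WT passed only through the clone libraries, so the counts that follow are a description. All 60 passed the test between *SNAI1*-KO and WT, 52 higher and 8 lower. Over all genes tested 63.7% passed, 31.1% higher and 32.6% lower. The median log2 fold change was 5.98 over all 60, against -0.004 over all genes tested. It was 4.799 with the 22 genes that had no count in WT set at their lower bound. In WT 30 of the 73 had no count, of which 29 had one in the clones. *HOXD13*, a limb and distal axis gene, was at 0 in WT and at 2362 to 3672 counts in the others, at least 757-fold higher. *CDKN2A*, from the locus named above, was at least 360-fold higher, and *CDKN2B* beside it at least 76.6-fold. A gene lost by deletion has no counts whether or not it is silenced, so both stand in these counts only as listed genes. *MEIS1*, a HOX cofactor, rose by 5.76 and *HOXB9*, a trunk gene, by 3.86 on the log2 scale (edgeR adjusted p = 5.86e-09 and 9.50e-09).

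The targets that were lower had the opposite pattern. *TIMP3*, a metalloproteinase inhibitor, had 754 ± 3.15 CPM in WT and 72.6 ± 2.41 and 54.6 ± 1.14 CPM in CS16 and CS19 (SD, n = 3 each; log2 fold change -3.68, edgeR adjusted p = 3.12e-09). *FBXO32*, a described EZH2 target, fell by 1.68, *CIITA* by 3.64 and *KLF2* by 3.63 on the log2 scale, and each was lower in 6 of 6 libraries, with 23.4% of the exon bases of *CIITA* overlapped by exons of other genes. WT-2 raised the WT level of *CIITA* and *KLF2*, with 17.5, 54.99 and 14.7 CPM and 5.93, 15.6 and 5.85 CPM in WT-1, WT-2 and WT-3, and without it they were lower by 6.72-fold and 7.85-fold in place of 12.4-fold each. *CDH1*, the SNAI1 and PRC2 target that encodes E-cadherin, averaged 1.45 ± 0.486 CPM over the WT libraries, 3.89 ± 0.629 CPM over CS16 and 4.22 ± 0.256 CPM over CS19 (SD, n = 3 each). For *SNAI1*-KO it was higher by a log2 fold change of 1.38 (edgeR adjusted p = 0.000577) and 1.14 without WT-2 (edgeR adjusted p = 0.000618).

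Because *EZH2* and *SUZ12* are known to follow cell division, 30 proliferation genes were counted beside them. Of these 21 passed between *SNAI1*-KO and WT (70.0%, against 63.7% of all genes), 9 higher and 12 lower, with a median log2 fold change of -0.09. Without WT-2 25 passed (83.3%, against 67.2%), 10 higher and 15 lower, with a median of -0.29. The replication genes *MCM4* and *MCM6* rose by 1.31 and 0.99 (edgeR adjusted p = 3.18e-06 and 6.87e-05), whereas *E2F1* fell by 0.96 and *MKI67* fell by 2.22 (edgeR adjusted p = 3.72e-05 and 0.000125). The value of *MKI67* was -1.46 without WT-2, which had 34318 counts against 16166 and 9064. The part of proliferation in the values of the members was not tested.

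Genes with the profile most like each member over the 9 libraries were sought among 15577 genes of at least 1 CPM on average, by the root mean square difference of log2 CPM centred on each gene's mean. The 2 nearest genes lay within 0.037 to 0.147 of their member, whose own profiles had a root mean square of 0.177 to 1.03. *CBX2* was closest to *KIF7* and *CRELD2*, *BMI1* to *ENPP4* and *ABHD3*, *JARID2* to *INPPL1* and *PCSK7*, and *EZH1* to *USP48* and *ZNF333*. *EZH2* was closest to *RNF168* and *ITSN2*, *SUZ12* to *RAP1A* and *TMF1*, *EED* to *UBL5* and *BTG1*, *CBX8* to *QTRT1* and *PRADC1*, and *CBX7* to *NAGK*. No member was among the 2 nearest genes of another. These likenesses are descriptions over libraries that share WT-2.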

How the data were processed

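Total RNA of 9 samples labelled MDA-MB-231 (WT, CS16 and CS19, 3 each) was depleted of ribosomal RNA and sequenced in pairs. Per the labels and the study's methods, the authors trimmed reads with Trimmomatic 0.36, aligned them with STAR 2.7.2b to GRCh38.p13 and counted pairs on GENCODE 38 genes with featureCounts (Subread 2.0.0), ignoring strand and at a mapping quality of at least 30. The authors deposited raw counts per gene, 19527195 to 28627777 per library, which limits precision most for *CBX7*.

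From the counts, edgeR 4.0.16 (R 4.3.3, limma 3.58.1) filtered genes with filterByExpr, scaled by TMM and ran the quasi-likelihood test with Benjamini-Hochberg adjustment over all genes, with the libraries of each comparison alone in the fit. TPM used the gene lengths in the count tables. Ratios were compared by exact permutation tests over libraries, two-sided. The remaining steps used scipy 1.17.1, numpy 2.4.6, pandas 2.3.3 and, for plots, matplotlib 3.10.9, under Python 3.11.15. GC content came from GENCODE 44 transcripts, and WT-2 differences and likeness used log2(CPM + 0.5). Floors were 3 counts per library and cover counting error only.

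The members and gene lists were chosen with earlier results of these data known. All members were named. Of the other Polycomb genes, 15 passed in both clones with the same sign and by 1 or more on the log2 scale, and the 12 with the smallest of the larger adjusted p were named. Of the targets, the rule took the 5 higher and the 5 lower genes of smallest adjusted p, with *CDKN2A*, *CDKN2B* and *CDH1*, and of the proliferation genes the 4 smallest. Some genes of these lists stay in the counts but are not reported here by name.

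Alternatives were DESeq2 1.42.0, other normalizations and filters, a replicate block, a fit shared by all groups and leaving out each library. The code was tested on simulated data made from these libraries: with 100 genes changed 4-fold and 100 changed 2-fold, edgeR recovered 88 and 33 in *SNAI1*-KO against WT (19631 genes), 64 and 4 in CS16 (18611 genes), 71 and 5 in CS19 (18935 genes), and 95 and 72 between the clones (17538 genes).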

Additional observations from a re-analysis of the deposited data

Results flagged for a closer look

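The response of 4 members differed between the clones, each by edgeR's quasi-likelihood test of CS16 against CS19 with Benjamini-Hochberg adjustment. *BMI1* was lower in CS16 by a log2 difference of -0.69 (edgeR adjusted p = 0.000333), and *EZH2* by -0.32 (edgeR adjusted p = 0.00253). *CBX7* was lower in CS16 by -0.59 (edgeR adjusted p = 0.0432) and *CBX2* was higher by 0.20 (edgeR adjusted p = 0.0429), and both of these calls were lost when some single libraries were left out and with the replicate block. When WT shared the fit, none of the 4 passed in edgeR (adjusted p = 0.47, 0.378, 0.341 and 0.877 for *BMI1*, *EZH2*, *CBX7* and *CBX2*), with *CBX7* alone at an unadjusted p below 0.05, and DESeq2 called 3. Among all 17538 genes tested 27.4% passed.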

How the results depend on the processing

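Replicate numbers did not pair the libraries, since correlations of same-numbered deviations ran from -0.303 to 0.281. With the replicate block, 2 members passed in CS16 against WT. Between the clones the replicate block left 2 members, 4 other Polycomb genes and 3179 of all genes, and the fit shared by all groups left 0, 0 and 654. Leaving out single libraries gave 2 to 7 members and 12 to 30 other Polycomb genes in CS16 against WT, 1 to 7 and 14 to 30 in CS19 against WT, and 2 to 4 and 4 to 7 between the clones. The upper ends against WT came without WT-2, where 7 members passed in each clone. The *EZH2* to *EZH1* log2 ratio of *SNAI1*-KO against WT ran from 0.39 to 0.72, and its exact permutation p rose above 0.05 without any single library other than CS16-3. The *CBX7* call in CS19 was gained with DESeq2 (adjusted p = 0.0266), RLE normalization (edgeR adjusted p = 0.0495) and the shared fit (edgeR adjusted p = 0.0166), and the *EZH1* calls were lost with no filter (edgeR adjusted p = 0.112 in CS16 and 0.125 in CS19). The causes were not tested. In *SNAI1*-KO against WT, *SUZ12* was the only member whose call changed under any alternative. Over all alternatives, member log2 fold changes kept direction and side of the threshold in 452 cases, lost the call in 34, gained it in 9 and changed sign in 36, all of the latter in values that did not pass with all libraries. Leaving out single libraries, *EZH2* ranged from -0.20 to 0.047 in *SNAI1*-KO and -0.022 to 0.22 in CS19 against WT. *EED* ranged from -0.30 to 0.17 in *SNAI1*-KO, -0.29 to 0.19 in CS16, -0.28 to 0.19 in CS19, where it passed the threshold without WT-2, and -0.17 to 0.12 between the clones. *CBX8* ranged from -0.13 to 0.13, -0.028 to 0.22 and -0.19 to 0.075 in the comparisons with WT. Between the clones *EZH1* ranged from -0.085 to 0.024, *SUZ12* from -0.029 to 0.13 and *JARID2* from -0.043 to 0.064. Sign changes under other settings in *SNAI1*-KO were *EED* at 0.053 (upper-quartile normalization), 0.091 (no filter) and 0.034 (replicate block) and *EZH2* at 0.033 (no filter). In CS16 *EED* was -0.0025 (shared fit). In CS19 *EED* was -0.0011 (DESeq2), -0.0012 (RLE normalization) and -0.017 (shared fit), and *CBX8* 0.0073 (upper-quartile normalization) and 0.047 (no filter). Between the clones *EED* was -0.024 and *JARID2* -0.019 (upper-quartile normalization), and *EED* -0.0017 (replicate block).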
